A study of Mus musculus with 2 samples.

Results

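The genes described here are 50 mitotic spindle and kinetochore genes of the mouse, read in total RNA from embryonic lung. They were chosen by name as genes of the spindle, kinetochore, condensin, spindle checkpoint and cytokinesis, by a rule that uses no expression value. All 50 were found by symbol among the 43346 gene rows of the deposited tables. The study holds 1 group with 2 libraries, which the labels call biological replicates 1 and 2. Each library was made from 10 ng of RNA longer than 200 nt, taken from lungs of B6NCrl embryos at day 16.5 of gestation, with male and female embryos pooled. For replicate 2 the labels give 41 embryos, and for replicate 1 they give no number. No genotype, treatment or other age was compared, so the data give levels and the spread between 2 pools. With 1 group there was no comparison of conditions to test, and no p-value is given, since an exact sign-flip test over 2 replicates cannot give a p below 0.5.

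A dividing cell sorts its chromosomes with a spindle of microtubules that grip each chromosome at the kinetochore, a protein plate built on the centromere. The spindle checkpoint holds back the anaphase-promoting complex (APC/C) until every kinetochore is attached, after which separase cuts cohesin, the chromatids part and the cell is pinched apart. Most of these genes are transcribed late in the cell cycle, and many of their promoters carry a cell-cycle genes homology region (CHR), the sequence TTTGAA, through which the DREAM complex and the B-MYB and FOXM1 factors act. The lung at this age is a branching organ in which epithelium and mesenchyme still proliferate.

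The libraries held 38852470 and 27145411 estimated reads (expected counts) in replicates 1 and 2. The defining markers of lung were present: 5 of 5 epithelial, 5 of 5 mesenchymal and 5 of 5 endothelial marker genes stood at 10 TPM or more in both replicates (TPM is a level per unit of transcript length in which all libraries have equal sums). Markers of neighbouring organs differed between the replicates. The summed level of 8 liver markers was 63.7 TPM in replicate 1 and 519.7 TPM in replicate 2, with 8 of 8 higher in replicate 2. For 8 thymus and lymphoid markers the sums were 22.5 and 56.9 TPM, and for 7 skeletal muscle markers 170.1 and 483.9 TPM. The 7 cardiac markers summed to 1043 and 865 TPM, with 5 lower and 2 higher in replicate 2, and their medians were 97.4 and 108.9 TPM. These are bulk samples, in which fewer cells of a type and less RNA per cell cannot be told apart.

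The promoters of these genes shared short sequences that were not used to choose them. Promoter windows of 300 bases, from 250 bases before to 50 bases after an annotated start, were available from RefSeq (build GRCm38.p6) for 44 of the 50 genes. The 30 bases around the CHR match are printed for 11 genes of different roles, to show how the shared element sits in otherwise unlike sequence. Each is the most abundant of its role among those with a match within 50 bases of the start. The chromosomal passenger complex, described below, was left out, although its member Cdca8 had a match 13 bases after the start. The printed sequences run 5′ to 3′ along the gene, and the capitals mark the CHR, either as TTTGAA or as its reverse complement TTCAAA.
Top2a: gctagataaaggTTCAAAtgaaactaggga
Plk1: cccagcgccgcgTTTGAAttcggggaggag
Bub3: gagccgttggcgTTCAAAatcagccaatga
Ube2c: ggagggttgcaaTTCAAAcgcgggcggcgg
Cenpa: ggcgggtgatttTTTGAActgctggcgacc
Cenpf: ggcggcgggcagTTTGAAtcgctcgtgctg
Spc25: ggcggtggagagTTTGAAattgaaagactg
Kif22: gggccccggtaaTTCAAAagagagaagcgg
Prc1: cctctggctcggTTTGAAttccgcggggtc
Racgap1: ctggtgcgtgatTTTGAAccggatctggcg
Smc2: ctcgcgccgaaaTTCAAAggaacagttccg

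In GRCm38.p6 these windows lay for Top2a at chr11:99024195-99024224 (minus strand), Plk1 at chr7:122159453-122159482 (plus strand), Bub3 at chr7:131560315-131560344 (plus strand). Those of the next 4 genes lay for Ube2c at chr2:164769888-164769917 (plus strand), Cenpa at chr5:30666890-30666919 (plus strand), Cenpf at chr1:189688067-189688096 (minus strand), Spc25 at chr2:69206172-69206201 (minus strand). The last 4 lay for Kif22 at chr7:127042420-127042449 (minus strand), Prc1 at chr7:80294434-80294463 (plus strand), Racgap1 at chr15:99651634-99651663 (minus strand), Smc2 at chr4:52439235-52439264 (plus strand). The CHR began 2 bases after the start in Cenpf, 30 bases after it in Plk1, 29 bases before it in Ube2c and 43 bases before it in Bub3. Bub3 has another annotated start, and the same CHR lay 167 bases before that.

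TTTGAA, counted on both strands, occurred in 31 of the 44 promoters (70.5%), beside 14.3% of 10313 promoters of coding genes detected in these lungs and 20.2% of all 27025 genes with a promoter window. The matches of the mitotic genes lay close to the start. Within 50 bases of the start a match was found for 28 of 44 genes (63.6%), beside 3.70% of detected coding genes. At or after the start lay 18 of those 28. A match is a description of letters, not a bound site, and its absence says only that these letters are not in this window.

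**Figure D1:**
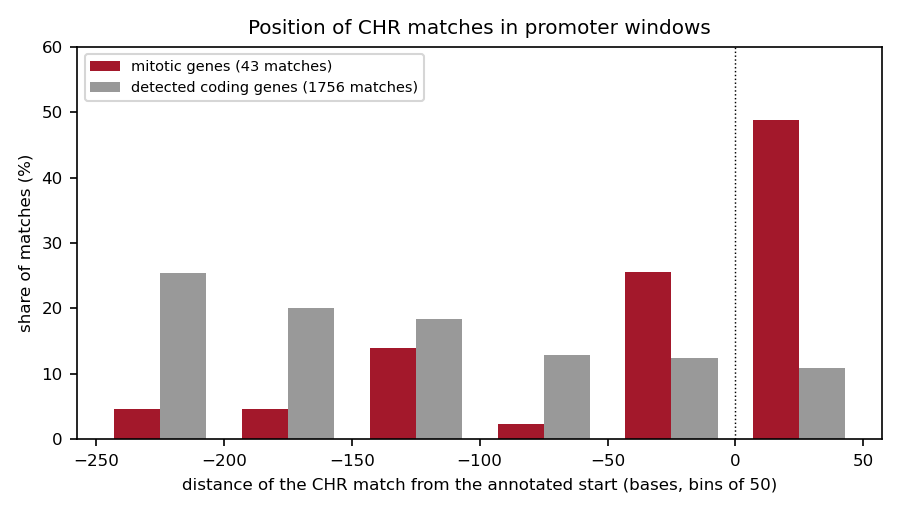
Share of CHR matches (vertical axis, percent of matches) in bins of 50 bases by distance from the annotated start (horizontal axis), for the mitotic genes (red, 43 matches in all windows) and for detected coding genes (grey, 1756 matches). A site shared by overlapping windows of a gene was counted in each of them. Of the mitotic genes' matches 48.8% lay in the 50 bases from the start and 25.6% in the 50 bases before it, while the grey bars were highest, at 25.3%, in the bin farthest upstream.

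The letters CCAAT, the core of the element bound by the factor NF-Y, were found on either strand in 31 of 44 promoters (70.5%), beside 42.8% of detected coding genes. At least 2 CCAAT matches were present in 19 promoters (43.2%), beside 16.4% of detected coding genes. Both a CHR and a CCAAT were present in 26 promoters (59.1%), beside 7.07%. Hmmr, a spindle assembly protein, had 5 CCAAT matches.

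Of the other elements searched, the core of the E2F element, searched on both strands as TTCCCGC or TTGGCGC or TTCGCGC or TTGCCGC, occurred in 11 promoters (25%), beside 19.3% of detected coding genes. The CHR-like sequence TTTAAA, which is its own reverse complement, occurred in 11 promoters (25%), beside 11.2%. A TATA box (TATAAA) was found in 2 promoters, those of Cenpk and Kif2c (4.55%), beside 8.88% of detected coding genes. Both windows with this match lay wholly inside the annotated span of the gene, and the other Cenpk windows had no match. The median GC content of the members' windows was 59.0%, and that of detected coding genes was 60.7%.

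The stretch from 250 to 6 bases before the start is printed for 3 of the most abundant members, 2 with many matches and 1 with none. It leaves out the bases from the start on, where 18 of the 28 members with a near CHR match had it. Capitals mark CHR and CCAAT matches on either strand, and where both orientations of CCAAT overlap they form 1 run.
Ube2c: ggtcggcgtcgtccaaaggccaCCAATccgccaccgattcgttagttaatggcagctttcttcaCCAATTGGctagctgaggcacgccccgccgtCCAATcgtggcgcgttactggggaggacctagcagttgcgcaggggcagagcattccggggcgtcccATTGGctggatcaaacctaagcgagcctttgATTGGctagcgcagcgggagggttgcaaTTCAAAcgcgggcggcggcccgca
Top2a: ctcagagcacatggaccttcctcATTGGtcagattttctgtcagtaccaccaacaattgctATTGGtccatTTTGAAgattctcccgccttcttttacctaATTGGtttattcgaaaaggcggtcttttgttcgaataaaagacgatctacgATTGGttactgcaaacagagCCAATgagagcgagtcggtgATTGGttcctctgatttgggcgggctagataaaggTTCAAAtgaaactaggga
Birc5: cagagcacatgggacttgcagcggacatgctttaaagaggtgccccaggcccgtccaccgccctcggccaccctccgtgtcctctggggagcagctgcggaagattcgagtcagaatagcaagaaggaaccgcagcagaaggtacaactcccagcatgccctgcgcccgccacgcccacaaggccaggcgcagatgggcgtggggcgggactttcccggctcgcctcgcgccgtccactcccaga

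These lay for Ube2c at chr2:164769679-164769923 (plus strand), Top2a at chr11:99024195-99024439 (minus strand), Birc5 at chr11:117848987-117849231 (plus strand), all in GRCm38.p6. The Ube2c stretch held 1 CHR and 6 CCAAT matches and was 61.6% GC. The Top2a stretch held 2 CHR and 6 CCAAT matches and was 43.3% GC. Neither element was found in the Birc5 stretch, which was 65.7% GC. The 13 members with a promoter window but no CHR were Fzr1, Bub1, Birc5, Cenpc1, Cenpe, Cenpk, Kif18a, Mad2l1, Ncaph, Nuf2, Nusap1, Plk4 and Pttg1. Their levels ran from 18.1 to 271.2 TPM with a median of 55.2 TPM, and those of the 31 members with a CHR ran from 10.4 to 430.4 TPM with a median of 77.9 TPM. The 2 ranges overlapped.

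All 50 mitotic genes were expressed. Every member stood at 1 TPM or more in both replicates, beside 61.5% of 21474 coding genes, and every member stood at 10 TPM or more in both, beside 40.3%. Of the 50, 47 reached 20 TPM, 32 reached 50 TPM and 18 reached 100 TPM in both replicates. The median member level was 80.8 TPM in replicate 1 and 73.3 TPM in replicate 2 (77.1 ± 5.29 TPM, SD, n = 2). The median of 13202 detected coding genes was 19.0 ± 0.159 TPM (SD, n = 2), and 47 of the 50 members lay above it. Together the members took 0.761% and 0.722% of the reads assigned to genes. They lie on 16 chromosomes, with 9 members on chromosome 2 and 5 each on chromosomes 7, 9 and 11.

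**Figure D2:**
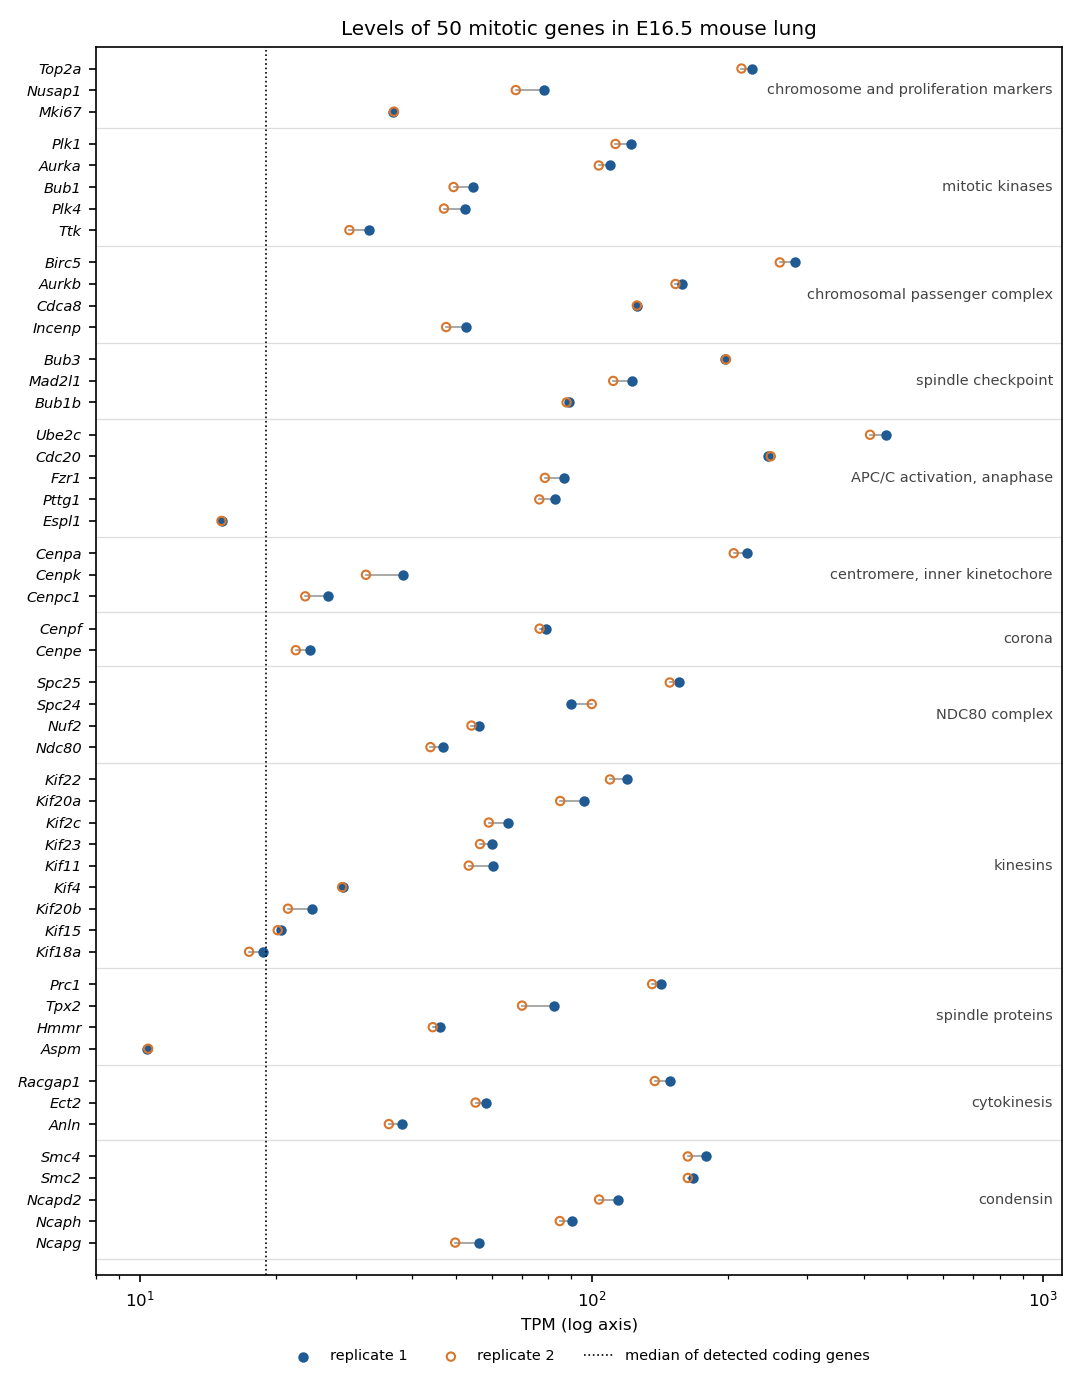
Level of each of the 50 mitotic genes in TPM (horizontal log axis), grouped by role, with filled points for replicate 1 and open points for replicate 2 joined by a line, and a dotted line at the median of detected coding genes (19.0 TPM). The levels ran from about 10.4 TPM for Aspm to 430.4 TPM for Ube2c, and the distance between the replicates of a gene was small beside the distances between genes.

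The genes of APC/C activity and anaphase onset ran from 15.1 to 430.4 TPM, with separase at the low end. Ube2c, the ubiquitin-conjugating enzyme that works with the APC/C (chr2:164769898-164778822, plus strand), was the most abundant member, with 447.4 TPM in the first library and 413.4 TPM in the other (430.4 ± 24.1 TPM). Cdc20, the activator of the APC/C in early mitosis, stood at 245.8 and 249.2 TPM. Fzr1, the activator that takes over on mitotic exit and in G1, stood at 87.0 and 78.8 TPM. Cdc20 therefore exceeded Fzr1 in both replicates, with a log2 ratio of 1.58 ± 0.12 (SD, n = 2). Securin (Pttg1), which holds separase inactive, stood at 82.7 and 76.5 TPM. Separase itself (Espl1), the protease that opens cohesin rings, stood at 15.2 and 15.1 TPM, the lowest level but one among the 50. The log2 ratio of securin to separase was 2.39 ± 0.08, but on counts not divided by length it was -0.93. Cdc20 was below Ube2c in TPM, and with the length of the longest coding transcript their log2 ratio was 0.34. The 16 APC/C subunits and regulators, listed for comparison, were all at 10 TPM or more, with a median of 90.8 ± 1.81 TPM, and 9 of them were lower and 7 higher in replicate 2.

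Chromosome and proliferation markers were far apart in level. Top2a, the topoisomerase that untangles sister chromatids (chr11:98992943-99024189, minus strand), stood at 226.4 and 214.6 TPM. Mki67, which encodes the Ki-67 protein that coats mitotic chromosomes, stood at 36.2 and 36.5 TPM, so that its log2 ratio to Top2a was -2.60 ± 0.06. Nusap1, a microtubule-binding protein of the spindle near chromosomes, stood at 78.5 and 67.9 TPM. Top2b, the isoform that non-dividing cells also use, was lower than Top2a by a log2 ratio of 2.37 ± 0.05.

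Among the 5 mitotic kinases listed here Plk1 and Aurka were the most abundant. Plk1, which acts from mitotic entry to cytokinesis, stood at 122.2 and 112.9 TPM, and Aurka, the kinase of spindle poles, stood at 109.6 and 103.7 TPM. The checkpoint kinase Bub1 stood at 54.5 and 49.4 TPM. Plk4, which starts centriole duplication, stood at 52.3 and 47.1 TPM, and the log2 ratio of Plk1 to Plk4 was 1.24 ± 0.03. Ttk (also Mps1), which starts checkpoint signalling at kinetochores, was the lowest of the 5 at 32.2 and 29.1 TPM. The ranges of Bub1 and Plk4 over the 2 replicates overlapped, while Ttk lay below both of them.

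The chromosomal passenger complex joins the kinase Aurkb to its scaffold Incenp through Birc5 (survivin) and Cdca8 (borealin). Its transcripts were unequal in level. Birc5 (chr11:117849251-117855743, plus strand) stood at 281.5 and 260.9 TPM, Aurkb at 158.7 and 153.3 TPM, Cdca8 at 126.2 and 125.9 TPM, and Incenp at 52.7 and 47.6 TPM. The 4 genes kept this order in both replicates with no overlap between neighbours. With the length of the longest coding transcript Birc5 stood at 76.4, below Aurkb at 139.5 and Cdca8 at 125.03. In TPM the log2 ratio of Birc5 to Aurkb was 0.80 ± 0.04, turning to -0.06 on counts not divided by length and -0.87 on the longest transcript. That of Aurkb to Incenp was 1.64 ± 0.07, and that of Aurka to Aurkb was -0.55 ± 0.02.

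In the spindle checkpoint Bub3, the adaptor that brings Bub1 and BubR1 to kinetochores, stood at 197.1 and 198.3 TPM. Mad2l1, the protein that sequesters Cdc20, stood at 122.9 and 111.6 TPM, and Bub1b, which encodes BubR1, stood at 89.2 and 88.0 TPM. Their order was the same in both replicates. The adaptor exceeded its partner Bub1b by a log2 ratio of 1.16 ± 0.02, and Bub1b exceeded Bub1 by 0.77 ± 0.09.

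At the centromere the histone variant Cenpa was far above Cenpk and Cenpc1 of the inner kinetochore in TPM. Cenpa stood at 221.2 and 206.3 TPM. Cenpk, a subunit of the constitutive centromere network, stood at 38.1 and 31.6 TPM, on 1130 and 664 reads, the fewest of the 50 members. Cenpc1, which links centromeric nucleosomes to the outer kinetochore, stood at 26.1 and 23.2 TPM, and the log2 ratio of Cenpa to Cenpc1 was 3.12 ± 0.05, the largest of the 31 ratios in TPM. Coding transcripts took 35.2% of the Cenpa level and 100% of the Cenpc1 level, so this ratio is not of coding transcripts alone. In the corona, the outermost layer of the kinetochore, Cenpf stood at 79.2 and 76.7 TPM and the motor Cenpe at 23.8 and 22.1 TPM. That order did not hold with the length of the longest coding transcript, which put Cenpf at 21.5 and Cenpe at 23.0.

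The NDC80 complex, the main microtubule coupler of the kinetochore, pairs Ndc80 with Nuf2 and Spc24 with Spc25. Spc25 stood at 156.1 and 148.9 TPM and Spc24 at 90.2 and 100.03 TPM. Nuf2 stood at 56.2 and 54.2 TPM and Ndc80 at 46.9 and 44.0 TPM. The dimer that faces the centromere was thus higher than the dimer that faces the microtubule, with a log2 ratio of Nuf2 to Spc25 of -1.47 ± 0.01. Within the dimers the partners were closer, at -0.28 ± 0.03 for Ndc80 to Nuf2 and 0.68 ± 0.15 for Spc25 to Spc24.

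The 9 kinesins ran from 18.1 to 114.8 TPM, with a median of 56.8 ± 4.74 TPM (SD, n = 2). The chromokinesin Kif22 was the highest at 119.8 and 109.8 TPM, followed by Kif20a, which carries the passenger complex to the central spindle, at 96.0 and 85.2 TPM. A middle group lay close together. Kif2c, a microtubule depolymerase at centromeres, stood at 65.1 and 59.2 TPM, Kif11, the motor that pushes spindle poles apart, at 60.6 and 53.4 TPM, and Kif23, the motor of centralspindlin, at 60.1 and 56.6 TPM. The ranges of Kif2c, Kif11 and Kif23 overlapped. The chromokinesin Kif4 stood at 28.2 and 28.0 TPM and the cytokinesis motor Kif20b at 24.1 and 21.3 TPM. Kif15, which can stand in for Kif11, stood at 20.5 and 20.2 TPM, and Kif18a, which damps chromosome movements, at 18.7 and 17.4 TPM. Kif18a was the only kinesin member below the median of detected coding genes. The log2 ratio of Kif11 to Kif15 was 1.49 ± 0.11, that of Kif20a to Kif20b was 2.00 ± 0.01 and that of Kif2c to its paralogue Kif2a was 2.53 ± 0.11.

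Of the other spindle proteins, Prc1, which bundles antiparallel microtubules, stood at 142.4 and 136.1 TPM. Tpx2, the activator of Aurka, stood at 82.4 and 70.1 TPM, with a log2 ratio to Aurka of -0.49 ± 0.11 in TPM and 0.45 on counts not divided by length. Hmmr stood at 46.1 and 44.5 TPM. Aspm, a spindle pole protein known for its part in brain size (chr1:139454772-139494091, plus strand), was the lowest of the 50 at 10.4 TPM in both replicates. In cytokinesis, Racgap1, the GTPase-activating subunit of centralspindlin, stood at 148.9 and 137.9 TPM, Ect2, which activates RhoA at the cleavage plane, at 58.4 and 55.3 TPM, and the scaffold Anln at 37.9 and 35.5 TPM. Kif23, the partner of Racgap1, was lower than it by a log2 ratio of -1.30 ± 0.02, and Ect2 was lower by -1.33 ± 0.02.

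Condensin, which compacts chromosomes, is a complex of Smc2 and Smc4 with 3 further subunits. Smc4 stood at 179.1 and 163.2 TPM and Smc2 at 168.0 and 163.2 TPM, with a log2 ratio of Smc2 to Smc4 of -0.05 ± 0.07 that was within its spread. That near equality held in TPM but not with other divisors: the ratio was -0.39 on counts not divided by length and -0.72 with the length of the longest coding transcript. In TPM the condensin I subunits followed, with Ncapd2 at 114.6 and 103.8 TPM, Ncaph at 90.5 and 85.0 TPM and Ncapg at 56.4 and 49.9 TPM. With the length of the longest coding transcript the order changed, to Ncaph at 84.9, Smc4 at 70.7, Ncapd2 at 68.1, Ncapg at 52.2 and Smc2 at 42.9. Against its condensin II counterpart each subunit differed: the log2 ratio was 2.30 ± 0.08 for Ncapd2 to Ncapd3 and 1.51 ± 0.08 for Ncapg to Ncapg2. For the kleisins it had the other sign, at -0.65 ± 0.03 for Ncaph to Ncaph2.

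**Figure D3:**
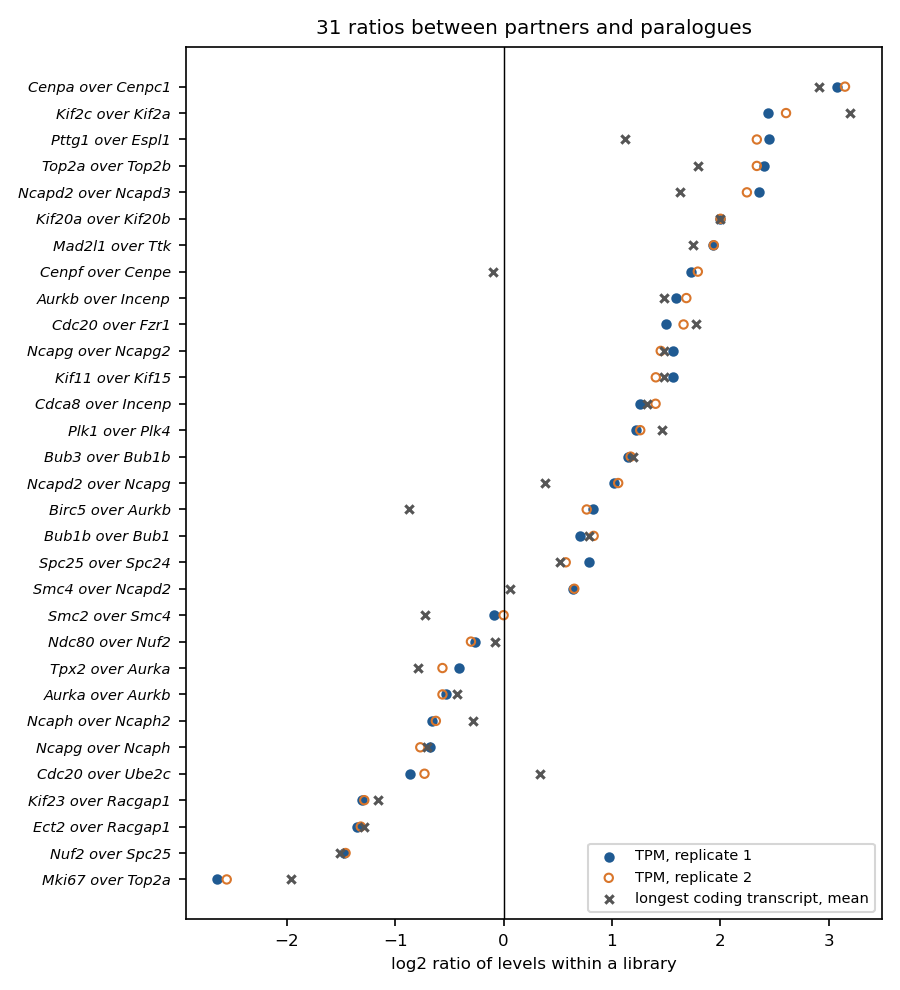
Log2 ratios of levels within a library (horizontal axis) for 31 pairs of partners and paralogues, in TPM for replicate 1 (filled) and replicate 2 (open), with crosses for the mean ratio when reads are divided by the length of the longest coding transcript. In 30 of 31 pairs both replicates lay on the same side of 0 with a mean above 2 SD, the exception being Smc2 over Smc4, and the crosses of Birc5 over Aurkb, Cdc20 over Ube2c and Cenpf over Cenpe lay on the other side of 0.

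A level per length depends on which transcript the reads were assigned to. Of the 34 members with several annotated transcripts, 30 had a leading transcript with 50% or more of the level, beside 77.2% of 9650 detected coding genes with several transcripts. In 33 of the 34 both replicates had the same leader, the exception being Kif20a, whose pair of coding transcripts differ by 2 nt in length (3567 and 3565 nt). The leader was coding in 32 of the 34, and a leader that is not coding was found in 9.39% of the 9650 genes.

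Cenpa and Smc2 were the 2 members led by a transcript that is not annotated as coding. For Cenpa the leader, Cenpa-202, is annotated as a target of nonsense-mediated decay and took 50.02% and 49.1% of the level. All coding transcripts of Cenpa together took 35.2 ± 2.01%. For Smc2 the leader was Smc2-203, a processed transcript of 643 nt, with 56.7% and 58.5% of the level, and coding transcripts took 27.7 ± 2.73%. Similarly, Smc4-206, a coding transcript of 1163 nt, took 61.0 ± 0.63% of the Smc4 level, and the longest coding transcript, of 4316 nt, took 4.50 ± 0.14%. For Cenpf a transcript of 3001 nt led with 44.5 ± 1.09%, and the longest one, of 11130 nt, took 13.5 ± 0.11%, although 3069 of its 6311 reads in replicate 1 were assigned to the longest one.

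Short transcripts weigh more per read in TPM, so the levels were also computed with the longest annotated coding transcript as the length of each gene. With that length the median member level was 61.5 and 56.1 (58.8 ± 3.85, SD, n = 2) on the same scale. For 8 of 50 members the deposited TPM was at least 1.5-fold higher than this value, beside 16.9% of 13441 coding genes, so the members were near the background. The fold was 3.86 for Smc2, 3.62 for Cenpf, 3.55 for Birc5, 2.42 for Pttg1 and Smc4, 2.41 for Ube2c, 1.60 for Ncapd2 and 1.55 for Top2a. In Birc5, Ube2c and Pttg1 the longest coding transcript held 2.64%, 0.14% and 3.63% of the level, so its length is not that of their main form. The highest members by this measure were Cdc20, Bub3 and Cenpa, while by reads alone they were Top2a, Bub3 and Racgap1. Across the 50 members, log2 TPM and the log2 length of the longest coding transcript had a Pearson correlation of -0.49, which is a description over genes read in the same libraries, with TPM itself divided by length.

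**Figure D4:**
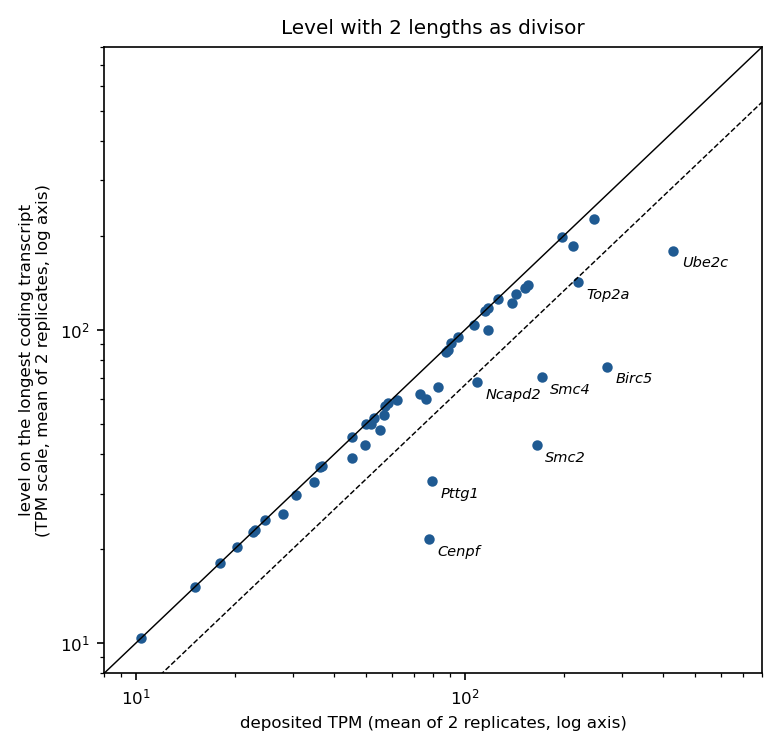
Deposited TPM (horizontal log axis) against the level computed with the length of the longest coding transcript (vertical log axis, TPM scale), each the mean of 2 replicates, for the 50 mitotic genes. Points on the solid line have equal values, and the 8 named genes below the dashed line have a TPM at least 1.5-fold higher, with the largest fold for Smc2 at 3.86.

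Some reads may not be told apart from those of other genes. A stretch of at least 400 nt with 90% identity or more in another annotated transcript was found for 16 members, which for Kif20a, Kif4 and Ncapg was only the gene that overlaps them on the opposite strand. For Ndc80 a near copy was 2700099C18Rik, a transcribed pseudogene on chromosome 17 that is 92.7% identical to it over 763 nt and stood at 16.7 and 16.2 TPM. The pseudogenes of Cdc20 (Gm7856), Plk1 (Plk-ps1) and Kif11 (Gm15697) were all below 1 TPM. An annotated gene overlapped 21 members on the opposite strand, by as little as 4 bases for Fzr1 with Mfsd12. Some of the overlapping genes had no reads, such as those of Cenpf (Gm37239) and Ect2 (Gm25152). For neither count was the share over all genes computed. Ube2c overlaps Tnnc2, a troponin gene of skeletal muscle, which stood at 23.4 and 79.1 TPM in the 2 libraries, while Ube2c was lower in replicate 2. The whole gene span of Bub3, 11674 bases, lies within that of Fgfr2 on the opposite strand, a growth factor receptor gene that stood at 164.2 and 169.2 TPM. Whether counting used the strand is not given in the sources used here, so these levels are uncertain to that extent.

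The mitotic genes were slightly lower in replicate 2. On the scale of log2(TPM + 1), 45 of the 50 were lower in replicate 2 than in replicate 1, beside 49.5% of 15493 genes whose mean reached 1 TPM and 56.3% of 9255 genes whose mean reached 10 TPM. The median difference, replicate 2 minus replicate 1, was -0.10 for the members and 0.00 for the 15493 genes. Single differences ran from -0.26 for Cenpk to 0.15 for Spc24. Tpx2 at -0.23 and Nusap1 at -0.21 were the next lowest after Cenpk. The 5 members that were higher in replicate 2 were Mki67, Bub3, Cdc20, Spc24 and Aspm, and all of these except Spc24 differed by 0.02 or less.

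No member differed 1.5-fold or more, beside 1.38% of genes that were lower and 4.65% that were higher in replicate 2 by that much, and none differed 2-fold, beside 2.67%. The median absolute difference was 0.10 for the members, 0.11 for the 15493 genes and 0.08 for the 9255 genes that reached 10 TPM, so by this measure the members were not closer between the replicates than other genes. The SD of the signed differences was 0.07, 0.38 and 0.23 over the same sets. By role, 9 of 9 kinesins, 5 of 5 condensin genes, 5 of 5 mitotic kinases and 4 of 4 passenger complex genes were lower in replicate 2. So were all centromere, corona and cytokinesis genes. The other roles were mixed, with 4 of 5 APC/C and anaphase genes, 3 of 4 NDC80 genes and 3 of 4 spindle proteins lower. The checkpoint genes and the chromosome and proliferation markers each had 2 of 3 lower. Over all roles 45 of 50 were lower, beside 56.3% of the 9255 genes. The bounds of the deposited credibility interval did not overlap between replicates for 26 members, 25 lower and 1 higher in replicate 2. Among the 15493 genes such a gap was found for 9.9% in the lower and 6.71% in the higher direction, and among the 9255 genes that reached 10 TPM for 14.7% and 6.33%. These bounds cover the assignment and counting of reads in 1 library and not the variation between pools of embryos. They follow the posterior mean, and the deposited TPM lay outside its own bounds for 3 members in replicate 1 and 7 in replicate 2.

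**Figure D5:**
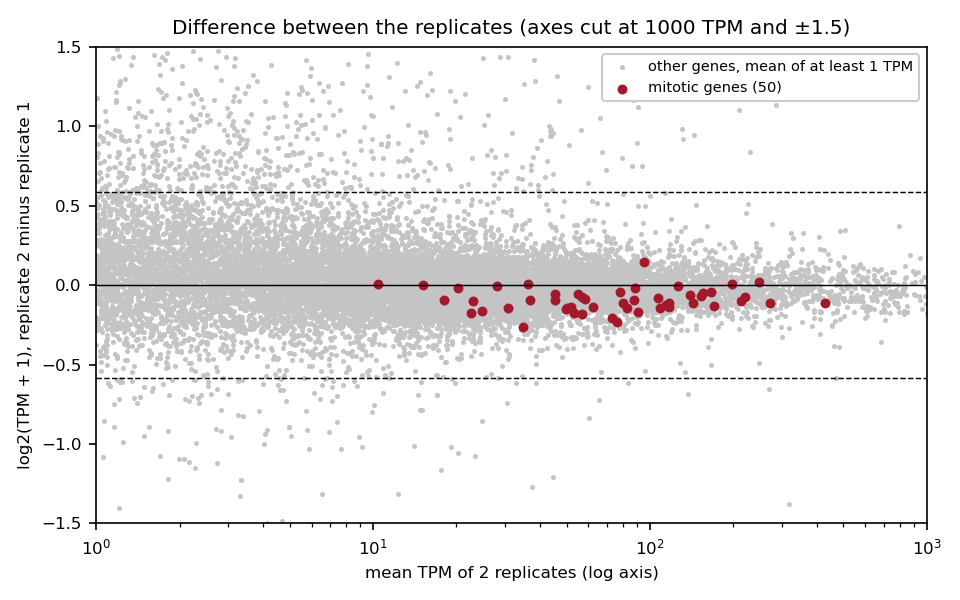
Difference in log2(TPM + 1), replicate 2 minus replicate 1 (vertical axis), against the mean TPM of the 2 replicates (horizontal log axis), for the 50 mitotic genes (red) and other genes whose mean reached 1 TPM (grey), with dashed lines at a 1.5-fold difference. The red points lie between -0.26 and 0.15, and 45 of 50 are below 0.

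Several marker lists also differed between the replicates. The sums of liver, thymus and skeletal muscle markers were higher in replicate 2, as given above. All 8 erythroid markers were higher there too, with a median log2 difference of 0.60 and 4 of 8 past 1.5-fold, as were 5 of 5 macrophage markers, with a median of 0.11. Of the lung markers, 4 of 5 epithelial, 3 of 5 mesenchymal and 4 of 5 endothelial genes were lower in replicate 2. Of all genes whose mean reached 10 TPM, 56.3% were lower. The median differences of these lung lists were -0.05, -0.19 and -0.11 in that order. Single lung markers ran from -0.29 for Nkx2-1 and Sox9 to 0.38 for the surfactant gene Sftpc, with -0.27 for Col1a1 and -0.20 for Tbx4. Small differences were -0.004 for Epcam, -0.05 for Cdh1, 0.04 for Tcf21, 0.01 for Pdgfra and 0.009 for Egfl7. The part of these cells in the lower mitotic levels was not tested. With 1 value a replicate, a difference between pools of embryos and a difference between library preparations cannot be told apart.

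Other genes of mitosis, taken from lists of pathway members, showed similar breadth. All 36 other kinetochore and centromere genes stood at 1 TPM or more and 33 at 10 TPM or more in both libraries. Their median was 31.02 ± 2.00 TPM. Of these, 26 were lower and 9 higher in replicate 2, and none differed 1.5-fold. The highest was Zwint, an outer kinetochore protein, at 162.1 and 165.9 TPM, and Hjurp, the chaperone that deposits Cenpa, stood at 154.1 and 154.9 TPM. Knl1, the scaffold on which Bub3 and Bub1 assemble, stood at 52.2 and 53.3 TPM. The lowest by mean was Cenpj, a centriole protein despite its name, at 7.27 and 7.18 TPM, next to Cenpb at 7.07 and 7.91 TPM.

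The 28 other spindle and cytokinesis genes were likewise all at 1 TPM or more, with a median of 41.7 ± 0.746 TPM, and 20 of them were lower in replicate 2. Tacc3, a spindle protein phosphorylated by Aurka, was the highest at 178.5 and 159.0 TPM, and Kif14, a kinesin of the midbody, was the lowest at 4.68 and 4.28 TPM. The 15 cohesin and condensin II genes had a median of 26.4 ± 0.898 TPM, and 12 of them were lower in replicate 2. The 20 replication genes, which act in S phase, had a median of 105.4 ± 2.38 TPM, and 15 of them were lower in replicate 2, with differences from -0.17 to 0.03. None of the genes in these lists differed 1.5-fold between the replicates.

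Paralogues that serve meiosis or other settings were mostly low. Of 14 such genes 3 reached 1 TPM in both libraries, and 4 were listed at 0 in both. The median over the 14 was 0.0475 TPM. Among the latter were Aurkc, the aurora kinase of germ cells, and Kif2b. Over a transcript of 2 kb, a count of 0 allows up to 0.0604 TPM in replicate 1 and 0.0852 TPM in replicate 2, with 3 counts as the limit and counting error only. The exceptions were Rec8, a meiotic cohesin subunit, at 20.2 and 17.0 TPM, Cdc20b at 3.86 and 4.56 TPM, and Stag3 at 3.76 and 2.89 TPM. Rec8 thus stood above 3 of the 50 mitotic genes, Kif18a, Espl1 and Aspm, in replicate 1.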

How the data were processed

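Total RNA from 2 libraries of embryonic lung was sequenced with spike-in RNAs. Per the notes deposited with the files, reads were quantified on mouse build mm10 with GENCODE M4; the aligner, the quantifier and the use of strand are not given in the sources used here. The authors deposited, per the file headers, an expected count, a TPM and an FPKM for each gene and transcript, a posterior mean TPM, bounds of a credibility interval (a score whose interval level is not stated) and the percent of a gene's TPM taken by each transcript. TPM was scaled with spike-ins included.

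Gene identifiers were matched to GENCODE M21 symbols. Rows for 96 spike-ins held 2.30% and 2.32% of the counts and 26249 rows without a gene identifier held 0.000191% and 0.000273%; both were left out. Differences were taken on log2(TPM + 1) with a pseudocount of 1 for genes whose mean reached 1 TPM; called means past a 1.5-fold or 2-fold change. The replicates differed beyond sampling noise, with a chi-square of 10.7 per degree of freedom over 19419 genes. Scalings came from edgeR 4.0.16 and DESeq2 1.42.0 (expected counts were rounded to whole numbers for DESeq2), near copies from BLAST+ 2.17.0, and figures from matplotlib 3.10.9. The call of 1.5-fold differences was tested on simulated counts, and the other steps were not. Promoter windows are from RefSeq, and 1 of them is not reported here; proteins were not analysed here. All 50 members may be named, other genes only from the lists and pairs or as an overlap or near copy. The members and lists were chosen with earlier results of these data known. Alternatives were other pseudocounts, filters and scalings, posterior means, FPKM, undivided counts, 1 promoter strand and, chosen after seeing the data, the length of the longest coding transcript.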

Additional observations from a re-analysis of the deposited data

How the results depend on the processing

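The counts of members expressed, the median difference between the replicates and the counts past 1.5-fold and 2-fold stayed within their limits under the alternatives run. With TMM scaling, DESeq2 size factors or posterior means, 49 rather than 45 members were lower in replicate 2. The member medians were -0.13, -0.13 and -0.11. Among the 15493 genes, 54.5%, 55.5% and 49.8% were lower under these settings, with medians of -0.015, -0.019 and 0. The TMM and DESeq2 settings used counts not divided by length, so they changed more than the scaling. The median member level moved to 58.8 with the longest coding transcript as length. With counts not divided by length, 5 log2 ratios changed sign: Birc5 to Aurkb -0.0646, Tpx2 to Aurka 0.45, Cdc20 to Ube2c 0.0332, Pttg1 to Espl1 -0.93 and Smc4 to Ncapd2 -0.0481. With the longest coding transcript 3 did: Birc5 to Aurkb -0.87, Cdc20 to Ube2c 0.34 and Cenpf to Cenpe -0.0943. Both changes act through the length used. Posterior means moved the medians of the replication list to 102.8 TPM and the germline list to 0.205 TPM, and the cause was not tested. On the gene strand alone, which searches fewer sequences, CCAAT was found in 19 of 44 members (43.2% beside 24.97% of detected coding genes), the E2F core in 4 (9.09% beside 10.5%, against 25% beside 19.3% on both strands), the TATA box in 1 (2.27% beside 5.46%) and the CHR in 23 (52.3% beside 7.95%). No paired analysis was possible because the study has a single group. The lowest member rested on 1130 and 664 reads.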
